A study of Mus musculus with 22 samples.

Results

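Axon injury and regeneration response genes were examined in whole mouse spinal cord. The 9 genes were chosen by name, as well known genes that neurons switch on after their axons are damaged, and all 9 were found among the 21995 genes of the deposited tables. They were Atf3, Jun and Sox11, which encode transcription factors, Gap43 and Sprr1a, which encode proteins of growing axons, Gal and Vgf, which encode secreted neuropeptide precursors, Gadd45a, a stress and DNA damage response gene, and Ecel1, a membrane protease gene of injured neurons.

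The study asked which transcripts change in the spinal cord during normal aging and in amyotrophic lateral sclerosis (ALS), the fatal motor neuron disease. Its libraries, 22 in all, came from C57BL/6 mice: 8 Young wild-type males of 3-4 months, 8 Old wild-type males of 18-24 months, 3 G93a mice and 3 wild-type controls of the G93a mice, the last 6 mice being 5-6 months old by their labels. G93a mice are a model of ALS in which human SOD1 carrying the G93A mutation is expressed from a transgene present at high copy number, and they were taken when symptomatic. The methods give 2 females and 1 male in each of these small groups. Young and Old libraries were made with a KAPA HyperPrep kit and the control and G93a libraries with a TruSeq kit, so kit and experiment cannot be told apart when the experiments are set side by side. Because whole cords were used, each value is a mixture of neurons, glia and vessels. Below, control means the wild-type controls of the G93a mice, and libraries are numbered by their order in the table.

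When an axon is cut or loses its target, a stress signal that runs from the injury site to the cell body through the kinase DLK activates JNK, which phosphorylates the transcription factor Jun. Jun, together with Atf3 and Sox11, then turns on genes for axon growth and for peptides, among them Sprr1a, Gap43 and Gal. In the spinal cord Atf3 is close to silent in healthy motor neurons, and it is widely used as a marker of injured ones, while Gap43 and Vgf are made by many uninjured neurons.

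Total counts ran from 5078092 to 9358055 in the Young, 5664869 to 9145600 in the Old, 10693060 to 13219797 in the control and 9675610 to 11872431 in the G93a libraries. At these depths 3 counts, the smallest amount taken as detectable, corresponded to between 0.231 and 0.582 CPM (counts divided by a library size scaled with the TMM method of edgeR). Such limits cover counting error only. The row of mouse Sod1 was higher in G93a than in control cords (310 against 160 CPM on average, log2 fold change 0.95 ± 0.09 SE, adjusted p = 0.000311). The human transgene has no row in these mouse tables, so its reads could have been counted as mouse Sod1. Whether the mouse gene itself changed was not tested. All 10 motor neuron and all 7 oligodendrocyte markers passed the filter on low counts. Of 11 markers of sensory ganglion neurons, which lie outside the cord, 3 had at most 3 counts in every Young and Old library and 2 in every control and G93a library. In aging 3 of the 11 were tested and none was called. In the ALS model 5 were tested. Avil was higher (0.533 to 3.27 CPM, adjusted p = 0.00257) and Calca lower (23.3 to 14.1 CPM, adjusted p = 0.0363). Whether the RNA of these markers came from cells inside or outside the cord was not tested. Among the G93a libraries, library 2 stood apart: the neurofilament genes Nefl, Nefm and Nefh, which make up 91.7% to 95.9% of the summed motor neuron markers in every library, reached 2850 CPM in it, against 1690 and 1920 CPM in libraries 1 and 3, and its 11 microglia markers summed to 1610 CPM, against 3130 and 2440 CPM. G93a library 1 held the most Schwann cell marker RNA (243 CPM, against 81.6 and 98.7 CPM in libraries 2 and 3). In control libraries this sum was 58.8 to 68.5 CPM, most of it from 1 gene, Drp2 (58.6 CPM on average). Of the 7 Schwann cell markers, 4 passed the filter on low counts in the ALS experiment and 2 in aging. Among the Old libraries, library 6 had the most neurofilament RNA (4670 CPM) and the least microglia marker RNA (637 CPM). The 7 other motor neuron markers did not set either library apart, at 138 CPM in G93a library 2 against 152 and 137 CPM, and at 235 CPM in Old library 6, where the Old libraries ran from 221 to 274 CPM.

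Jun and Atf3 bind DNA as pairs of leucine zipper proteins at AP-1 sites, which read TGANTCA, and at sites of the cyclic AMP response element (CRE) type, so the promoters of the members were read for such letters. RefSeq promoters on GRCm38.p6 were given for 7 of the 9 members. Those of Gap43 and Vgf were not available, so nothing is known here of their motifs. In the 250 bases before the start, on either strand, Sprr1a held 2 AP-1 matches. No other of the 7 members read had one, and 6.75% of all 32851 promoters do. The letters TGACNTCA, which include the CRE TGACGTCA, were found in 3 members, Sprr1a, Jun and Sox11, and in 7.49% of all promoters. The CRE itself was found in none of the 7 members read and in 1.55% of promoters. The C/EBP-ATF letters TGATGNAA were found in Atf3, on the other strand, and in 3.45% of promoters. Of the remaining motifs, TTCNNNGAA, bound by STAT factors, was found in none of the 7 and in 7.02% of promoters. TATAAA was found in Sprr1a and in 12.4% of promoters. The windows below are shown because Sprr1a, Jun and Atf3 are the members with matches whose values are described first. They cover bases 220 to 31 before the RefSeq start, 5′ to 3′ on the minus strand of each gene, with motif matches in capitals, at chr3:92485912-92486101, chr4:95052253-95052442 and chr1:191183364-191183553. The Atf3 window precedes a start that lies within the longer gene span of GENCODE.
Sprr1a: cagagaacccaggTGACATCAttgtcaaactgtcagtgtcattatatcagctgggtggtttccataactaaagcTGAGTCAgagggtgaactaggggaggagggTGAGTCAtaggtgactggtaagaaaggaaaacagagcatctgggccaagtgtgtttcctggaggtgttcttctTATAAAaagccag
Jun: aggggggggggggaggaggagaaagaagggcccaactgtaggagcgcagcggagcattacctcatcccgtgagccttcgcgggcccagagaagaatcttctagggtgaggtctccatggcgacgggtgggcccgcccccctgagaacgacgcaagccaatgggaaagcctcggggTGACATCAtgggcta
Atf3: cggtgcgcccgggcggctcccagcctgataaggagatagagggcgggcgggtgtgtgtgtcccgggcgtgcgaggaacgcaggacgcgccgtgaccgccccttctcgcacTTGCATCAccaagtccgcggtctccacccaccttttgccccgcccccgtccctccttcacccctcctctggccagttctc
In the Sprr1a window the capitals mark, in order, the CRE-type match beginning 207 bases before the start, the AP-1 matches at 146 and 116, and TATAAA at 43. In Jun they mark the CRE-type match at 45 and in Atf3 the C/EBP-ATF match at 110. A match is a string of letters, not a site shown to be bound.

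Of the 9 genes, 1 was higher in Old cords and 7 were higher in G93a cords. In Old against Young cords, Atf3 was called higher and Sox11 was called lower at an adjusted p under 0.05 (edgeR quasi-likelihood test, Benjamini-Hochberg over all genes tested). These are 1 of 8 tested members in each direction, and of all 13647 genes tested 13.4% were called higher and 12.9% lower. Past the thresholds of the study, which also ask for a log2 fold change beyond 1, Atf3 was the only member higher, against 2.16% of all genes, and no member was lower, against 0.0366% of all genes. In G93a against control cords, Atf3, Sprr1a, Gap43, Jun, Sox11, Gadd45a and Ecel1 were called higher and no member was called lower. Of all 14386 genes tested there, 18.3% were called higher and 15.5% lower. The study thresholds were passed by 3 members, Atf3, Sprr1a and Gadd45a, against 8.47% of all genes higher and 1.18% lower. The median log2 fold change of the members was 0.03 in aging, over 8 tested, and 0.61 in the ALS model, over 9, beside medians of -0.003 and 0.003 over all genes tested. In these bulk samples, more RNA per cell and more cells of a type cannot be told apart.

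**Figure D1:**
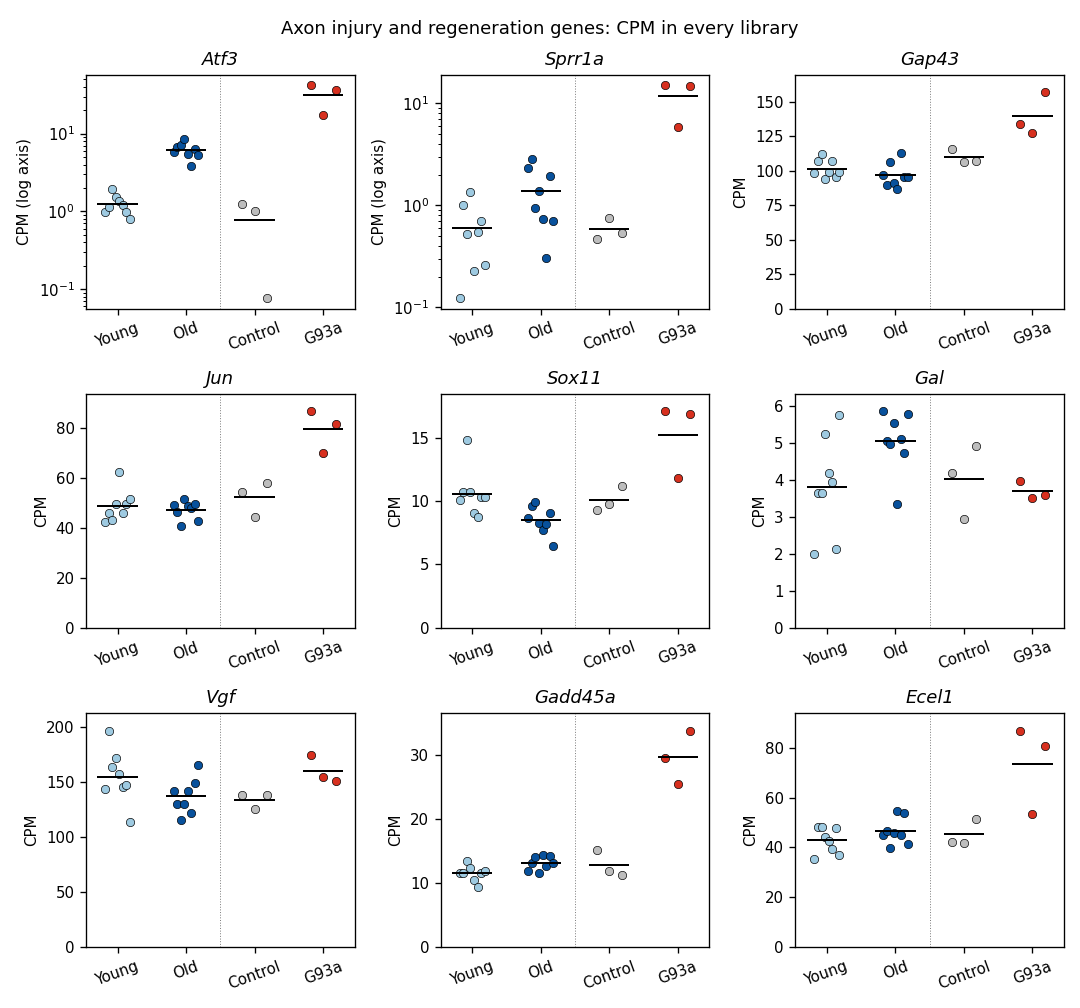
TMM-scaled CPM of the 9 genes in every library, with 1 point per library and a bar at the group mean. The axis is logarithmic for Atf3 and Sprr1a and starts at 0 for the others. All 8 Old libraries lie above all 8 Young ones for Atf3 alone, and all 3 G93a libraries lie above the 3 controls for every gene except Gal.

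Atf3, a leucine zipper transcription factor that is induced in neurons by axon injury and in other cells by stress and inflammatory signals (ENSMUSG00000026628, chr1:191170296-191218039 on GRCm38, minus strand), was low in Young cords. The 8 Young libraries held from 0.785 to 1.95 CPM with a median of 1.17, from 6 to 15 counts each, and the 8 Old libraries from 3.86 to 8.42 CPM with a median of 6.12, from 25 to 79 counts each. Every Old library was thus above every Young one, as for 3.66% of all genes tested. The mean rose from 1.25 ± 0.369 to 6.14 ± 1.38 CPM (SD, n = 8 each), a log2 fold change of 2.31 ± 0.20 (SE, adjusted p = 6.37e-10). With any of the 16 libraries left out the log2 fold change was between 2.23 and 2.43, and the call was kept. The lowest Old value in CPM, 3.86, was in Old library 6, which had the most neurofilament and the least microglia marker RNA of the Old libraries. By FPKM that library (3.53) was not the lowest, as Old libraries 1 (3.43) and 3 (3.47) were below it.

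In control cords Atf3 stood at 1.23, 1.01 and 0.0768 CPM, or 13, 12 and 1 counts, and in G93a cords at 41.7, 17.4 and 36.2 CPM. Library 2 was the lowest G93a library, and still far above every control. The mean rose from 0.774 ± 0.614 to 31.8 ± 12.7 CPM (SD, n = 3 each), a log2 fold change of 5.41 ± 0.56 (SE, adjusted p = 0.000675) that ran from 4.82 to 5.89 as libraries were left out in turn. It was larger in the ALS model than in aging by 3.05 ± 0.51 on the log2 scale (adjusted p = 0.000123 for the difference). The genes whose pair of log2 fold changes was nearest to that of Atf3, among 13590 tested in both comparisons, were C3ar1, the receptor for complement C3a (2.5 in aging and 4.92 in the ALS model), Csf2rb2, a cytokine receptor subunit (2.48 and 4.82), and Nupr1, a stress response gene (1.79 and 5.07), at distances of 0.528, 0.611 and 0.618. With 1 pair of values per gene, likeness here is a description of size only.

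Microglia markers and the summed astrocyte markers moved with Atf3 in both comparisons. Of 11 microglia markers, 10 were higher in Old cords and 9 in G93a cords. Their sum ran from 377 to 421 CPM in Young and 637 to 1090 CPM in Old libraries. It was 384 to 470 CPM in control and 1610 to 3130 CPM in G93a libraries. Of 8 astrocyte markers, 4 were higher and 1 lower in Old cords, and 5 were higher in G93a cords. The astrocyte sum was 8020 to 8770 CPM in Young and 9050 to 9900 CPM in Old libraries. In control libraries it was 7480 to 8130 CPM and in G93a libraries 13100 to 19900 CPM. The largest rise in mean CPM among these markers was that of 1 gene, Gfap. Its mean was 1840 CPM in Young and 2980 CPM in Old cords, and 1760 CPM in control and 9260 CPM in G93a cords. Slc1a2 and Aldoc were called in neither comparison, so the sum is weighted towards Gfap. The part of either cell type in the Atf3 values was not tested.

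Sprr1a, a small proline-rich protein that appears in axotomized neurons and promotes neurite outgrowth (ENSMUSG00000050359, chr3:92483952-92485895, minus strand), was near the limit of detection in wild-type cords. Its counts were 1 to 9 in the Young libraries, 35 in all, and 2 to 24 in the Old ones, 86 in all, which is below the filter on low counts, so it was not tested in that fit. The Young libraries held 0.124 to 1.36 CPM with a median of 0.534, and the Old ones 0.308 to 2.82 CPM with a median of 1.16. The groups overlapped over 9 libraries. Old library 6 was the lowest Old library, at 2 counts, which is under the 3 counts taken as detectable. Mean log2 CPM was 0.90 higher in Old cords (exact two-sided permutation test over 12870 arrangements, p = 0.0364, unadjusted, where the smallest possible p is 0.000155). That p rose to between 0.0566 and 0.0716 without Young library 1, 5 or 8 or Old library 1, 2, 4 or 7. Fits that kept the gene, namely DESeq2, edgeR without a filter and 1 edgeR fit of all libraries, gave log2 fold changes of 1.29, 1.28 and 1.32 with adjusted p of 0.0299, 0.0273 and 0.0254. With counts this low, the aging difference of Sprr1a is at the edge of what the depth can show.

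In the ALS model the difference was large. Sprr1a stood at 0.474, 0.758 and 0.538 CPM in control cords, from 5 to 9 counts, and at 15, 5.84 and 14.9 CPM in G93a cords, from 58 to 177 counts. Library 2 was again the lowest of the G93a libraries. The mean went from 0.59 ± 0.149 to 11.9 ± 5.25 CPM (SD, n = 3 each), a log2 fold change of 4.31 ± 0.45 (SE, adjusted p = 0.000459) that was larger than the change in aging by 2.95 ± 0.71 (adjusted p = 0.00292). Leaving out each library in turn gave 4.11 to 4.63. Its promoter, printed above, is the one with AP-1 matches among the 7 read.

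Gadd45a, which encodes a small protein that slows the cell cycle and acts in DNA repair and stress kinase signalling (ENSMUSG00000036390, chr6:67035096-67037457, minus strand), was the third member past the study thresholds in the ALS model. It stood at 15.1, 11.9 and 11.2 CPM in control and 29.5, 25.5 and 33.8 CPM in G93a cords. The groups were well apart, at 12.7 ± 2.07 and 29.6 ± 4.18 CPM (SD, n = 3 each), and the log2 fold change was 1.22 ± 0.16 (SE, adjusted p = 0.000923), between 1.12 and 1.36 with each library left out. In aging, the Young libraries ranged from 9.44 to 13.4 CPM (median 11.6) and the Old ones from 11.6 to 14.3 CPM (median 13.1). That difference did not pass the test (log2 fold change 0.19, 95% confidence interval 0.01 to 0.37 before adjustment, adjusted p = 0.114), and the change in the ALS model was larger by 1.01 ± 0.16 (adjusted p = 4.32e-05). The gene E230016M11Rik, which has no row in the tables, overlaps exons of Gadd45a on the other strand, and the strand used in counting was not stated, so reads of the pair cannot be told apart. Nearest to Gadd45a in both log2 fold changes were Castor1, an arginine sensor (0.17 and 1.25), F3, which encodes tissue factor (0.22 and 1.21), and Herc6, a ubiquitin ligase gene (0.16 and 1.25).

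**Figure D2:**
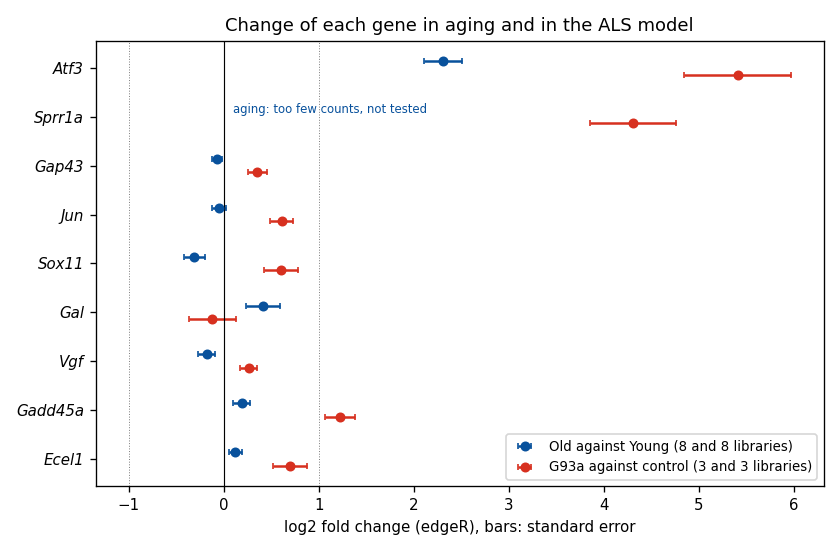
Log2 fold changes from edgeR, with bars of 1 standard error, for 8 genes in Old against Young (blue) and 9 genes in G93a against control (red) cords. Sprr1a has no aging point because it was below the filter on low counts. Dotted lines mark a log2 fold change of 1 in either direction. Atf3 is beyond the line in both comparisons, Sprr1a and Gadd45a in the ALS model, and the other points shown lie within the lines.

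Jun, the target of JNK and partner of Atf3 (ENSMUSG00000052684, chr4:95049034-95052222, minus strand), was higher in G93a than in control cords. It stood at 54.4, 44.3 and 57.9 CPM in control and 86.7, 70.1 and 81.5 CPM in G93a cords, without overlap. The means were 52.2 ± 7.08 and 79.4 ± 8.48 CPM (SD, n = 3 each), the log2 fold change was 0.61 ± 0.12 (SE, adjusted p = 0.00688), and the call was kept with each library left out (adjusted p between 0.000225 and 0.0339). In aging it was level: the Young libraries ranged from 42.3 to 62.2 CPM (median 47.7) and the Old ones from 40.6 to 51.4 CPM (median 48.4). The log2 fold change was -0.05, with a 95% confidence interval from -0.19 to 0.09 (adjusted p = 0.64), and the groups overlapped. The change in the ALS model was larger than in aging by 0.63 ± 0.14 (adjusted p = 0.00103). The antisense transcript Junos overlaps exons of Jun and has no row in the tables, so its reads could have been counted as Jun.

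Sox11, a transcription factor of developing and regenerating neurons (ENSMUSG00000063632, chr12:27334264-27342574, minus strand), was the member whose calls went in opposite directions. The Young libraries ranged from 8.78 to 14.8 CPM (median 10.3) and the Old ones from 6.47 to 9.96 CPM (median 8.51). The groups overlapped, with means of 10.6 ± 1.84 and 8.5 ± 1.11 CPM (SD, n = 8 each), and the log2 fold change was -0.31 ± 0.11 (SE, adjusted p = 0.043). This call was thin. It was lost with any of 10 of the 16 libraries left out, namely Young library 1, 2, 3, 4 or 8 or Old library 1, 4, 5, 7 or 8, where the log2 fold change was between -0.32 and -0.23 and the adjusted p between 0.0512 and 0.118. It was also lost in DESeq2 (adjusted p = 0.0526), in 1 edgeR fit of all libraries (0.0502) and in limma on log2(FPKM + 1) (0.127). In the ALS experiment Sox11 stood at 9.3, 9.77 and 11.2 CPM in control and 17.1, 11.8 and 16.9 CPM in G93a cords, where library 2 was close to the highest control. The log2 fold change was 0.60 ± 0.18 (SE, adjusted p = 0.0294), and without any control library or G93a library 1 or 3 it was 0.51 to 0.68 with an adjusted p of 0.0525 to 0.118. The difference between the 2 changes, 0.88 ± 0.20, kept its call with each control or G93a library left out (adjusted p = 0.00192, range 0.000168 to 0.0118).

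Gap43, a membrane protein of growth cones and of plastic synapses (ENSMUSG00000047261, chr16:42248442-42340651, minus strand), was abundant in every library. It stood at 116, 106 and 107 CPM in control and 134, 127 and 157 CPM in G93a cords. The groups did not overlap but were close. The control mean was 110 ± 5.79 CPM and the G93a mean 139 ± 15.5 CPM (SD, n = 3 each), a log2 fold change of 0.35 ± 0.10 (SE, adjusted p = 0.0276). Without any control library or G93a library 3 the log2 fold change was 0.26 to 0.39 and the adjusted p was 0.0563 to 0.109. In aging, the Young libraries ranged from 93.9 to 112 CPM and the Old ones from 86.5 to 113 CPM, with a log2 fold change of -0.07 and a 95% confidence interval from -0.18 to 0.04 (adjusted p = 0.365). The change in the ALS model exceeded that in aging by 0.39 ± 0.11 (adjusted p = 0.00721, and 0.0506 without G93a library 3).

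Ecel1, an endopeptidase of the neprilysin family that is induced in injured motor and sensory neurons (ENSMUSG00000026247, chr1:87147655-87156521, minus strand), stood at 42.1, 41.9 and 51.5 CPM in control and 86.9, 53.2 and 80.5 CPM in G93a cords. G93a library 2 exceeded the highest control by little. The log2 fold change was 0.70 ± 0.18 (SE, adjusted p = 0.0172), and without control library 1 or 2 or G93a library 3 it was 0.64 to 0.65 with an adjusted p of 0.0628 to 0.0715. In aging, the Young libraries ranged from 35.2 to 48.2 CPM and the Old ones from 39.6 to 54.7 CPM, with a log2 fold change of 0.12 and a 95% confidence interval from -0.03 to 0.27 (adjusted p = 0.248). The change in the ALS model was larger than in aging by 0.56 ± 0.17 (adjusted p = 0.0182), a call that was lost without control library 1 or 2 or G93a library 1 or 3 (adjusted p 0.0573 to 0.102).

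The secreted members were called in neither comparison. Vgf, whose product is cut into peptides that act on synapses and energy balance (ENSMUSG00000037428, chr5:137026392-137033351, plus strand), stood at 138, 126 and 138 CPM in control and 175, 155 and 151 CPM in G93a cords. All G93a libraries were higher, yet the log2 fold change of 0.26 ± 0.09 (SE) did not pass the test (adjusted p = 0.0558). Without G93a library 2 it was 0.29 and passed (adjusted p = 0.0175). In aging, the Young libraries ranged from 114 to 197 CPM and the Old ones from 116 to 166 CPM, with a log2 fold change of -0.18 and a 95% confidence interval from -0.37 to 0.02 (adjusted p = 0.169, and 0.0225 at -0.24 without Young library 8). The difference between the changes, 0.41 ± 0.15, just passed (adjusted p = 0.0491) and did not with any of the 6 control and G93a libraries left out (0.0572 to 0.168).

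Gal, which encodes galanin, a peptide that is strongly induced in injured sensory and motor neurons (ENSMUSG00000024907, chr19:3409915-3414544, minus strand), did not pass the test in either comparison. It stood at 4.18, 2.95 and 4.92 CPM in control and 3.98, 3.52 and 3.58 CPM in G93a cords, from 35 to 64 counts a library, so the G93a values lay within the control range. The log2 fold change was -0.12 with a 95% confidence interval from -0.69 to 0.45 (adjusted p = 0.747), and the sign turned without control library 3 (0.06). In aging, the Young libraries ranged from 1.98 to 5.75 CPM (median 3.8) and the Old ones from 3.35 to 5.85 CPM (median 5.07). The log2 fold change was 0.41 with a 95% confidence interval from 0.04 to 0.79 before adjustment (adjusted p = 0.0965, and 0.0367 at 0.52 without Young library 8). The difference between the changes was -0.56 ± 0.33 (adjusted p = 0.23).

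Set side by side, 8 of the 9 members had a more positive change in the ALS model than in aging by the test of the difference, all but Gal, and none a more negative one. Of all 14502 genes in that fit, 11.5% were more positive and 14.1% more negative in the ALS model. The count was 5 to 7 with each control or G93a library left out. The 8 members with non-overlapping, higher G93a libraries stand beside 25.7% of all genes tested. Leaving out G93a libraries 1, 2 and 3 in turn gave 6, 8 and 4 members called higher, and leaving out control libraries 1, 2 and 3 gave 4, 4 and 5. Atf3, Sprr1a, Jun and Gadd45a kept the call in all of these fits.

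**Figure D3:**
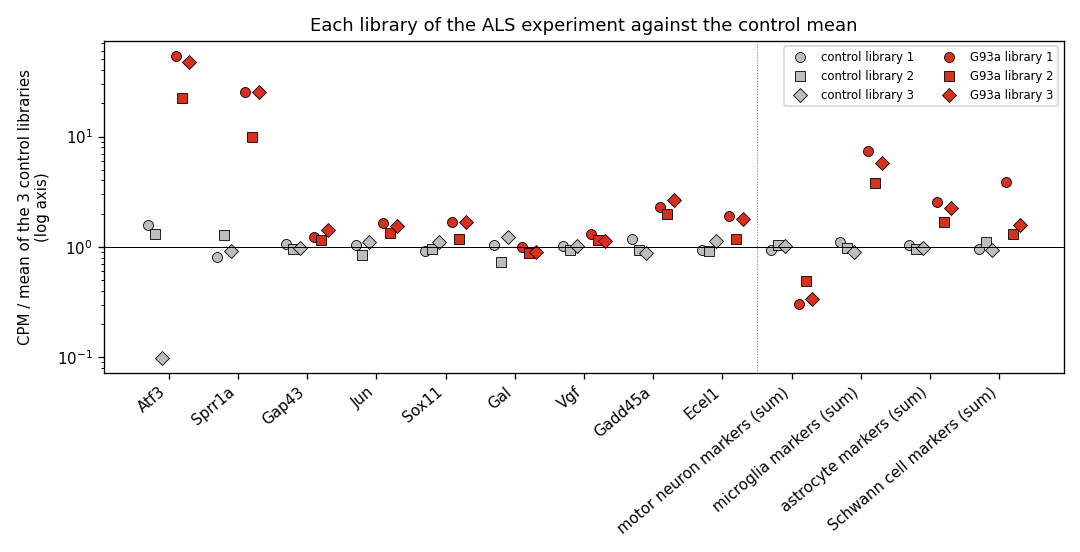
CPM of each member, and summed CPM of 4 marker lists, in each control (grey) and G93a (red) library, divided by the mean of the 3 control libraries, on a logarithmic axis. G93a library 2 (square) is the lowest G93a library for Atf3 (22.5 times the control mean, against 53.9 and 46.8), Sprr1a, Gap43, Jun, Sox11, Gal, Gadd45a and Ecel1, and the highest for the summed motor neuron markers (0.495, against 0.304 and 0.341), nearly all of which is neurofilament RNA.

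In CPM, library 2 had the lowest G93a value for every member except Vgf. For Gal the margin was small (3.52 against 3.58 CPM in library 3). By FPKM, Gap43 was lowest in library 1 (94.1, against 97 in library 2). Libraries 1 and 3 kept no fixed order. How many of all genes were lowest in library 2 was not counted. Library 2 kept the most neurofilament RNA, 2850 CPM against 1690 and 1920. Its 7 other motor neuron markers summed to 138 CPM, against 152 and 137 in libraries 1 and 3. Microglia markers rose least in library 2, to 3.79 times the control mean against 7.39 and 5.76. So did summed astrocyte markers, to 1.69 times against 2.56 and 2.27. Motor neuron markers were lower in G93a cords for 8 of 10 genes, and their sum was 5670 to 6250 CPM in control and 1840 to 2990 CPM in G93a libraries. Without the neurofilament genes it was 251 to 285 CPM in control and 137 to 152 CPM in G93a libraries, so by either sum the members called higher were higher in cords with less motor neuron marker RNA. For summed Schwann cell markers, mostly Drp2 in control cords, library 1 stood apart. It was at 3.88 times the control mean, and libraries 2 and 3 were at 1.31 and 1.58. The part of these cell types in the members' values was not tested.

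Levels can be compared between genes only per length, and FPKM, fragments scaled by gene length and depth, served for that. In Young cords the order of median FPKM was Gap43 (67.7), Vgf (58.7), Ecel1 (17.4), Jun (14.2), Gadd45a (11), Gal (5.15), Sox11 (1.18), Atf3 (0.76) and Sprr1a (0.635). The libraries of Gap43 and Vgf overlapped, as did those of Ecel1 and Jun, of Jun and Gadd45a, of Sox11 and Atf3, and of Atf3 and Sprr1a. In Old cords Atf3 (3.78 FPKM) stood above Sprr1a (1.44) and Sox11 (0.98), although the ranges of neighbours from Gal down to Sox11 overlapped. In control cords the lowest were again Sox11 (1.09), Sprr1a (0.65) and Atf3 (0.59). In G93a cords Atf3 (21.5 FPKM) overlapped the range of Jun (25), the next gene above it, and Sprr1a (18.4) overlapped that of Atf3, and both stood above Gal (5.14) and Sox11 (1.95) without overlap. Gap43 (97) and Vgf (60.2) were the most abundant of the 9 there too, followed by Ecel1 (35.7) and Gadd45a (25.7).

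**Figure D4:**
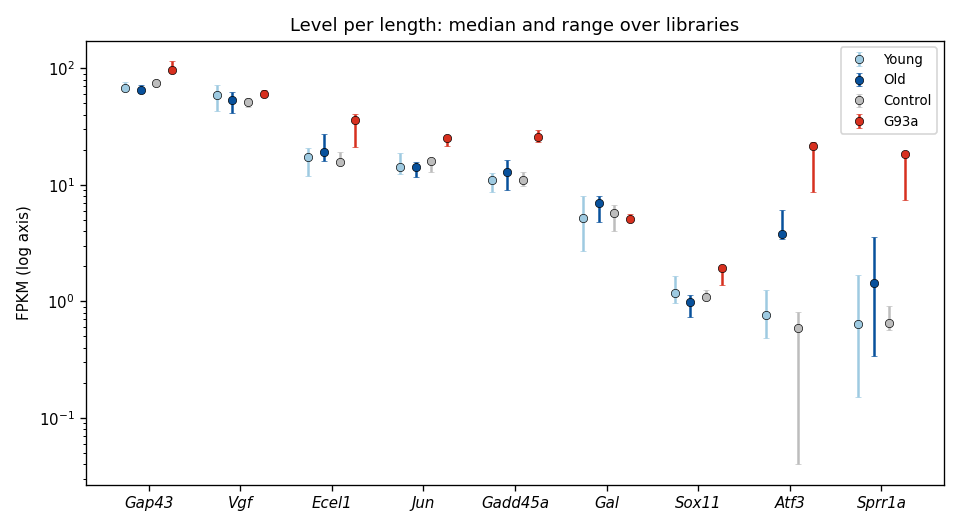
Median FPKM of each gene in the 4 groups on a logarithmic axis, with bars from the lowest to the highest library, ordered by the Young median. Gap43 leads in every group, and Atf3 goes from 0.76 in Young to 3.78 in Old and from 0.59 in control to 21.5 in G93a cords.

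Other genes of the axon injury programme were taken from 8 lists with 119 genes. In aging 107 were tested, of which 27 were higher and 18 lower. In the ALS model 112 were tested, of which 42 were higher and 26 lower. Of all genes tested, 13.4% were higher and 12.9% lower in aging, and 18.3% and 15.5% in the ALS model. The same shares stand beside the counts of each list below, and some of those counts are near them. The median log2 fold change over all tested genes of the 8 lists was -0.01 in both comparisons. The count of lower genes in the ALS model moved with the libraries used, being 17, 12 and 16 without control library 1, 2 and 3 and 9 without G93a library 3.

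Upstream of Jun, the list of DLK-JNK signalling, which holds DLK itself (Map3k12), its relative Map3k13, the kinases that activate JNK, the JNKs and their scaffolds, went the other way from Jun in the ALS model: 9 of its 10 genes were lower and none was higher. Examples were Mapk8ip2, a JNK scaffold (367 to 219 CPM, log2 fold change -0.75 ± 0.14, adjusted p = 0.00481), Mapk10, the neuronal JNK (292 to 179 CPM, -0.70), Map3k13 (25.5 to 14.4 CPM, -0.82) and Mapk8ip1 (408 to 309 CPM, -0.40). The count of 9 was kept without G93a library 2 and was 5 or 6 without a control library or G93a library 1, and 3 without G93a library 3. General neuronal markers were lower in the same cords for 7 of 8 genes, their sum being 6250 to 6510 CPM in control and 3170 to 5010 CPM in G93a libraries, and the part of neuronal RNA in the kinase values was not tested. That count of 7 was 4 without control library 2 and 2 without G93a library 3. In aging 4 of the 10 were lower, among them Mapk10 (-0.18), Mapk8 (-0.18) and Map3k13 (-0.27), and Map2k7, a kinase that activates JNK, was higher (0.23). This lower count was not firm: it was 1 without Young library 2, 2 without Young library 1, 5 or 6 or Old library 1, 3, 4, 5 or 7, and 3 to 5 without each of the others. These are transcript levels, and kinase activity was not measured.

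Of 15 leucine zipper partners of Jun and Atf3 tested, 7 were higher, 1 was lower and 7 were not called in aging, and 9 were higher and 6 were not called in the ALS model. The aging count of 7 was 4 without Young library 3, Young library 6 or Old library 4, and the ALS count was 6 to 10 with each library left out. Atf5, a stress response factor, rose from 26.9 to 39.9 CPM in Old cords (log2 fold change 0.57 ± 0.06, adjusted p = 5.06e-08) and from 27.7 to 59.9 CPM in G93a cords (1.12 ± 0.15, adjusted p = 0.00107), without overlap in either. Cebpd, a factor of acute inflammation, rose by 1.2 in aging and 3.04 in the ALS model, and Junb by 0.61 and 1.65. Fos rose by 0.56 in aging, where its libraries overlapped, and by 1.58 in the ALS model, and Cebpb, another inflammatory factor, by 0.61 and 1.98. Fos and Junb are also immediate early genes that respond to handling, and of the 10 genes of that list 3 were higher and 1 lower in each comparison.

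Among other transcription factors of regeneration, 5 of 17 were higher in aging and 8 of 17 in the ALS model, with none lower. Myc rose from 3.3 to 6.04 CPM in Old cords (0.86) and from 3.75 to 12.1 CPM in G93a cords (1.70). Stat3, which carries cytokine signals to the nucleus, rose by 0.26 and 0.93, and Trp53, which encodes p53, by 0.35 and 0.69. Klf6 rose by 0.36 in aging and by 0.96 in the ALS model (31.1 to 60.3 CPM), without overlap in either. Hif1a, the oxygen-sensing factor, rose in the ALS model (0.70) and was not called in aging (0.06, adjusted p = 0.458).

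**Figure D5:**
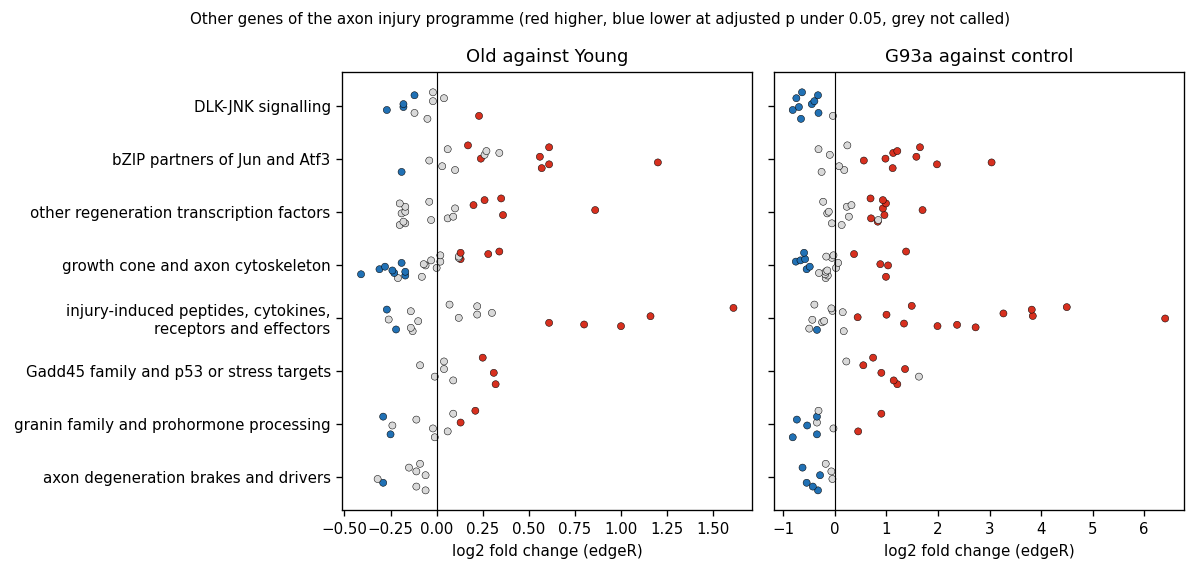
Log2 fold changes of the tested genes of the 8 lists, 1 point per gene, in Old against Young cords (left) and G93a against control cords (right), where the 2 horizontal scales differ. Red points were called higher, blue points lower and grey points neither. In the right panel 9 of 10 DLK-JNK genes are blue and 9 of 15 leucine zipper partners are red.

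Peptides, cytokines, receptors and effectors induced by injury held the largest changes. Of 28 genes 17 had enough counts in aging, with 5 higher and 2 lower, and 22 in the ALS model, with 12 higher and 1 lower. The neuropeptide genes tested, Npy, Vip, Adcyap1, Nts and Cck, were called in neither comparison. Nor was Galr1, a galanin receptor gene. The changes below are thus those of other genes of the list. Cd44, a hyaluronan receptor, rose in Old cords (27.9 to 55.9 CPM, log2 fold change 1 ± 0.08, adjusted p = 1.45e-10) and went from 18.2 to 120 CPM in G93a cords (2.73 ± 0.26, adjusted p = 0.000446). Csf1, the cytokine by which injured neurons drive microglia to divide, rose by 0.61 and 1.34, and all Old and all G93a libraries were above their controls. Socs3, a brake on Stat3 signalling, rose from 2 to 6.17 CPM and from 1.19 to 26 CPM. Hspb1, a small heat shock protein, rose from 23.3 to 51.7 CPM in Old cords (1.16) and from 25.6 to 366 CPM in G93a cords (3.84 ± 0.50, adjusted p = 0.00224). Plaur, the urokinase receptor, went from 0.505 to 7.6 CPM in the ALS model (3.82).

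Genes related to Gadd45a followed it in the ALS model, where 6 of 8 were higher and none lower. Gadd45g rose from 12.1 to 31.1 CPM (1.36), and the p53 targets Btg2 (1.21), Ccng1 (69.6 to 154 CPM, 1.14) and Mdm2 (0.55) rose as well. The genes of the list not called there were Cdkn1a (1.63, adjusted p = 0.0956, groups overlapping) and Phlda3 (0.22, adjusted p = 0.112). Btg2 is also on the list of immediate early genes. In aging 3 of the 8 were higher, Btg2 (0.32), Ppp1r15a (0.25) and Gadd45b (0.31), and all of these were also higher in the ALS model. The ALS count was between 3 and 7 and the aging count between 0 and 3 with each library left out.

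Genes of growing axons and their cytoskeleton split. In the ALS model 5 of 22 were higher, among them Marcks (141 to 288 CPM, log2 fold change 1.03), a substrate of protein kinase C, its relative Marcksl1 (0.88), the adhesion molecule Chl1 (0.99) and the tubulin Tubb6 (1.38), and 6 were lower, or 4 without control library 2 or 3 and 3 without G93a library 3. Of the genes named as higher, Tubb6 was also higher in aging (0.34). In aging 4 were higher and 8 lower, the latter including L1cam (-0.28), Dpysl2 (-0.23), Dpysl5 (-0.31) and Ncam1 (-0.19), all adhesion or axon guidance genes, of which L1cam (-0.49) and Dpysl5 (-0.55) were lower in the ALS model too. Granins and the enzymes that process prohormones, the machinery that handles the products of Vgf and Gal, were lower for 5 and higher for 2 of 10 genes in the ALS model. Chga fell by 0.82 and the convertase Pcsk2 by 0.74 on the log2 scale, while Scg3 rose from 275 to 512 CPM (0.90) and Cpe by 0.45. In aging 2 were higher, Scg5 (0.21) and Pcsk1n (0.13), and 2 lower, Scg2 (-0.29) and Chgb (-0.25). Of 8 genes that brake or drive axon degeneration, 5 were lower in G93a cords, among them Sarm1, the enzyme that destroys NAD in injured axons (-0.63), Mycbp2 (-0.55), Mtor (-0.43) and the axon survival factor Nmnat2 (-0.29), and in aging 1, Mycbp2, was lower (-0.29). With each library left out these lower counts in the ALS model were 2 to 7 for the granin list and 1 to 5 for the degeneration list.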

How the data were processed

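RNA was measured by sequencing in 22 whole spinal cords. The authors aligned reads with STAR, summarized them per gene with RSEM on an Ensembl annotation of mm10, and deposited RSEM expected counts, already whole numbers and not normalized, and log2 values, the log2 of FPKM plus 1. SAMtools 1.3 is named in the submitters' processing notes. In the log2 values, 304 entries were above 0 where the count was 0. Columns name the group of a library but not its replicate number, so libraries are numbered by column order. The methods name as many mice as libraries. In every pair of a group the counts differed beyond sampling noise (chi-square per degree of freedom at least 2.52).

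Genes were kept by filterByExpr (minimum count 10, minimum total 15), scaled by TMM and tested per comparison with edgeR 4.0.16 (robust quasi-likelihood test, Benjamini-Hochberg over all genes tested, threshold 0.05) in R 4.3.3. CPM are TMM-scaled. The permutation test used log2 CPM with a prior count of 2. An interaction term in 1 fit of all libraries tested the difference between the 2 changes. Sex was not a covariate because it is not given per library. Alternatives used DESeq2 1.42.0, limma 3.58.1, RLE factors, other filters, glmTreat, 1 fit of all libraries and each library left out. The robust option was dropped as an alternative chosen after seeing the data. On simulated counts with 200 genes changed by 1.5 on the log2 scale, edgeR found 97.5% in the 8 against 8 design of aging (13647 genes) and 90% in the 3 against 3 design of ALS (14386 genes). No direction was wrong, and 5.34% and 13.5% of calls were unchanged genes. This share was above the threshold of 0.05, most of all in the 3 against 3 design. Smaller changes, such as those of Gap43, Jun, Sox11 and Ecel1 in the ALS model, were not simulated.

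The members, the gene lists and the tests were chosen with earlier results of these data known. Named genes are the 9 members, at most 4 genes per list and comparison with the smallest adjusted p-values among those called, and the 3 genes nearest to each member past the study thresholds in the pair of log2 fold changes, where the member was tested in both. Positions are from GENCODE on GRCm38, and promoter sequences from RefSeq on GRCm38.p6. Figures were drawn with matplotlib 3.10.9.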

Additional observations from a re-analysis of the deposited data

Results flagged for a closer look

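In 18 groups of 8 libraries (the 9 members in Young and in Old cords), 3 held a library far from the others by Dixon's test, which chance alone flags in about 1 group in 20. Sox11 was highest in Young library 3, at 14.8 CPM where the next library had 10.7 CPM. Without it the log2 fold change in aging was -0.23 (adjusted p = 0.118). Jun was highest in Young library 5, at 62.2 CPM where the next had 51.4 CPM, and without it the log2 fold change was 0.01 in place of -0.05. Gal was lowest in Old library 5, at 3.35 CPM where the next had 4.72 CPM. That library also held the most Schwann cell marker RNA of the Old cords (136 CPM, where the others had 54.9 to 65.0 CPM), and the part of it in the Gal value was not tested.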

How the results depend on the processing

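Of 386 values of single members under the alternatives, 335 kept their direction and their side of the threshold, and of 376 counts 309 were within 1.5 times the reported one. Jun in aging ranged from -0.08 to 0.01 with a library left out, turning sign without Young library 5, and Gal in the ALS model from -0.30 to 0.06, turning without control library 3. For aging, genes past the study thresholds were 295 higher and 5 lower, with 475 and 13 in DESeq2, 504 and 31 without a filter, 169 and 2 with at least 10 counts in every library, 443 and 11 in 1 fit of all libraries, 1827 and 1757 with no threshold on the fold change, 123 and 1 in glmTreat, 127 and 1 in limma on FPKM (961 lower at adjusted p alone, against 1757), and 281 to 333 and 4 to 10 with a library left out. Members higher by either rule were 2 (Atf3 and Sprr1a) in DESeq2, without a filter and in 1 fit of all libraries, and 0 with at least 10 counts in every library, a filter that removes both genes. At adjusted p alone, members higher were 1 to 2 and members lower 0 to 1 with a library left out, and members lower were 0 in DESeq2, in 1 fit of all libraries and in limma. With no threshold on the fold change 1 member was lower. For the ALS model, genes past the study thresholds were 1219 higher and 170 lower, with 2634 and 2235 at no fold threshold, 542 and 9 in glmTreat, 56 lower in limma, and 994 to 1494 and 78 to 442 with a library left out. At adjusted p alone, 1634 to 3462 genes were higher and 711 to 3201 lower with a library left out, and 1303 lower in limma. Members past the study thresholds were 1 with at least 10 counts in every library, which removes Atf3 and Sprr1a, and 7 with no fold threshold. With a library left out, members higher were 4 to 8, lower genes of the 8 lists 9 to 31, and members with a more positive change in the ALS model 5 to 7. Whether Sprr1a differs with age is limited by its depth of 1 to 24 counts a library. The cause of the other shifts was not tested. No paired analysis was possible because the columns carry no replicate numbers.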
